A study of Mus musculus with 2 samples.

Results

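The genes described here are 10 G protein-coupled receptors that set where dendritic cells (DC) travel and settle, of the 32285 genes measured in splenic DC of wild-type (WT) and H2-Aa cit/cit mice. They were chosen by name, with earlier results of these data known: Ccr7, Gpr183, S1pr1, S1pr4, Ccr2, Cx3cr1, Cxcr4, Ccr9, Ccr6 and Ffar2. Each was found once in the gene list of both libraries. The study had used Ccr2 and Ffar2 among its markers of cDC2 clusters (a DC type described below) in these same libraries, so their contrast there was known beforehand. The study compared mice that lack MHC class II with their littermates and sequenced RNA from single DC of unchallenged animals. Each genotype gave 1 library, made from spleens of 3 pooled female mice of 4 months. The WT mice were H2-Aa +/+ littermates. The H2-Aa cit/cit mice were homozygous for citation, a chemically induced splice-donor mutation that leaves no normal transcript of the class II α chain and that is present in every cell of the body, not only in DC. Spleen cells were enriched on CD11c beads and sorted as live CD45.2+ CD11c+ cells before droplet capture, so both groups hold whatever CD11c+ cells the spleen contains.

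Chemokine receptors couple to inhibitory G proteins and turn a gradient of chemokine into directed movement. Maturing DC raise CCR7 and follow CCL19 and CCL21 into T cell zones, whereas EBI2, the product of Gpr183, follows oxysterols to the edge of the white pulp, and sphingosine 1-phosphate receptors draw cells toward blood and lymph. CCR2 and CX3CR1 are receptors of monocytes and of DC close to them, CXCR4 holds cells near CXCL12, CCR9 and CCR6 respond to CCL25 and CCL20, and FFAR2 senses short-chain fatty acids. Conventional DC comprise cDC1, which cross-present, and cDC2, which in spleen divide into an ESAM-high and an ESAM-low (Clec12a-expressing) population.

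There were 7814 cells with 51020804 UMIs in the WT library against 11525 cells with 72652201 UMIs in that of H2-Aa cit/cit, with medians of 5492 and 5633 UMIs a cell. A UMI is 1 captured RNA molecule. H2-Aa was at 5410 CPM, the UMIs of a gene scaled to 1000000 UMIs, over all WT cells but only 66.2 CPM over those of H2-Aa cit/cit, a log2 ratio of -6.35, which fits the labels. The share of cells with under 5% ribosomal UMIs was 28.9% in WT against 15.6% in H2-Aa cit/cit. The libraries shared 31 cell barcodes. With 1 library a group, genotype and library cannot be told apart and there is no replicate check: all intervals below are 95% intervals for counting error only, and no p-value is given.

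Cells were sorted into classes by the number of marker genes detected, and none of the 10 receptors was a marker. The thresholds were set after the marker distributions had been seen. The mature DC-like class (Fscn1, Socs2, Cacnb3) held 1632 cells of WT against 961 of H2-Aa cit/cit, which was 20.9% and 8.34% of the library. The cDC1-like class (Xcr1, Naaa, Cadm1) held 530 and 640 cells. All cDC2-like cells together numbered 3324 and 7111, or 42.5% and 61.7%. Of these 1293 and 1833 were ESAM-high, 291 and 1106 ESAM-low, and 1740 and 4172 were not split. Cells were left unsplit unless either set had at least 2 markers detected and led the other by at least 2. The median numbers of ESAM-high and ESAM-low markers in unsplit cells were 2 and 1 in WT but 2 and 2 in H2-Aa cit/cit. These gates read RNA. By flow cytometry of surface protein, the study saw no substantial difference between genotypes in how frequent ESAM-high or Clec12A-high splenic cDC2 were. Smaller classes were pDC-like (88 and 85 cells), Siglech-positive non-pDC (57 and 100), monocyte-like (125 and 150) and macrophage-like (99 and 64). The macrophage-like cells were shallow, with medians of 1312 and 1388.5 UMIs, and 54 and 33 of them had under 1500 UMIs. At the mature marker threshold or 1 marker under it lay 603 WT cells against 514 H2-Aa cit/cit cells.

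A receptor is called higher or lower below when its CPM in a class differed by more than 1.5-fold between the libraries and the counting interval of the ratio left out 1. Counts of receptors are set beside the share of all genes that met the same rule in that class, among genes with at least 20 UMIs over both libraries.

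**Figure D1:**
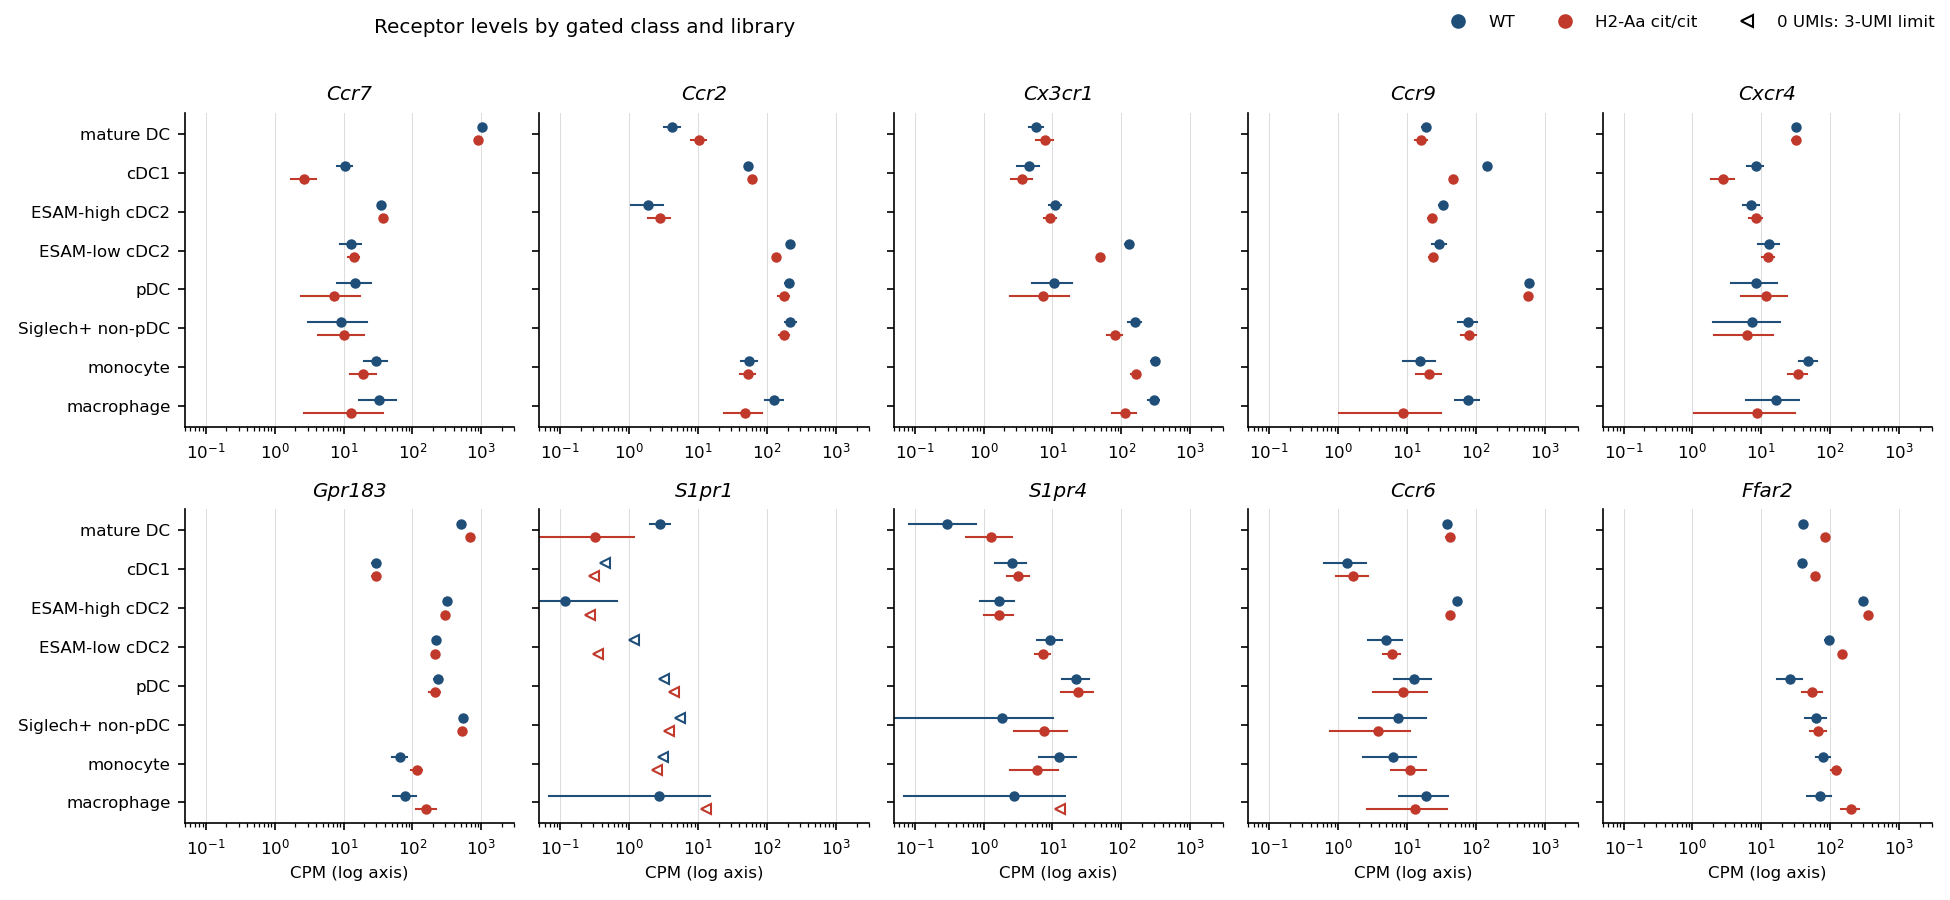
Level of each receptor (CPM, log axis) in 8 gated classes of the WT (blue) and H2-Aa cit/cit (red) libraries; bars are 95% counting intervals and open triangles mark the level of 3 UMIs where a class had 0. Ccr7 stands at 1017 and 900 CPM in mature DC-like cells and Ccr9 at 600 and 579 CPM in pDC-like cells.

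Ccr7 (ENSMUSG00000037944; chr11:99144196-99155077, minus strand, GRCm38), the receptor for CCL19 and CCL21, marked the mature class in both libraries. Its level there was 1017 CPM (1000 to 1034) in WT, from 13606 UMIs, and 900 CPM (877 to 924) in H2-Aa cit/cit, from 5540 UMIs. The log2 ratio was -0.18 (-0.22 to -0.13), short of 1.5-fold. In cells thinned to 1500 UMIs, 67.2% of WT against 67.3% of H2-Aa cit/cit mature cells had a Ccr7 UMI, compared with 1.14% and 0.314% of cDC1-like cells (unthinned 94.2% and 92.9% against 8.11% and 3.28%; median UMIs 7030 and 5291 against 12351 and 15201). In the other classes Ccr7 lay at 37.0 CPM or less in both libraries.

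Over the whole library, in contrast, Ccr7 was 305 CPM in WT against 106 CPM in H2-Aa cit/cit, a log2 ratio of -1.52 (-1.56 to -1.49). The mature class held 87.4% of all Ccr7 UMIs in WT against 71.9% in H2-Aa cit/cit. That class was a smaller share of the H2-Aa cit/cit cells, while the Ccr7 level within it stayed within 1.5-fold. Over all cDC2-like cells Ccr7 was 23.7 CPM in H2-Aa cit/cit against 32.6 CPM in WT, a difference short of 1.5-fold. The part of each in the library-wide difference was not tested. Whether fewer mature cells were present in the spleen or fewer were captured cannot be told apart.

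Ccr7 followed the number of mature markers step by step in both libraries. This was read among mature, cDC2-like and ungated cells with fewer than 2 cDC1 markers, and cells of the other classes were left out. Cells with 0 markers had 18.4 CPM in WT against 9.16 CPM in H2-Aa cit/cit. With 5 markers the levels were 655 and 798 CPM, and with 7 they were 1023 and 1066 CPM. At 9 markers Ccr7 reached 1301 CPM (1258 to 1346) in 236 WT cells and 1109 CPM (991 to 1237) in 37 H2-Aa cit/cit cells. Over the mature class, weighting H2-Aa cit/cit cells to the WT spread over these markers moved the Ccr7 ratio from -0.18 to -0.07.

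**Figure D2:**
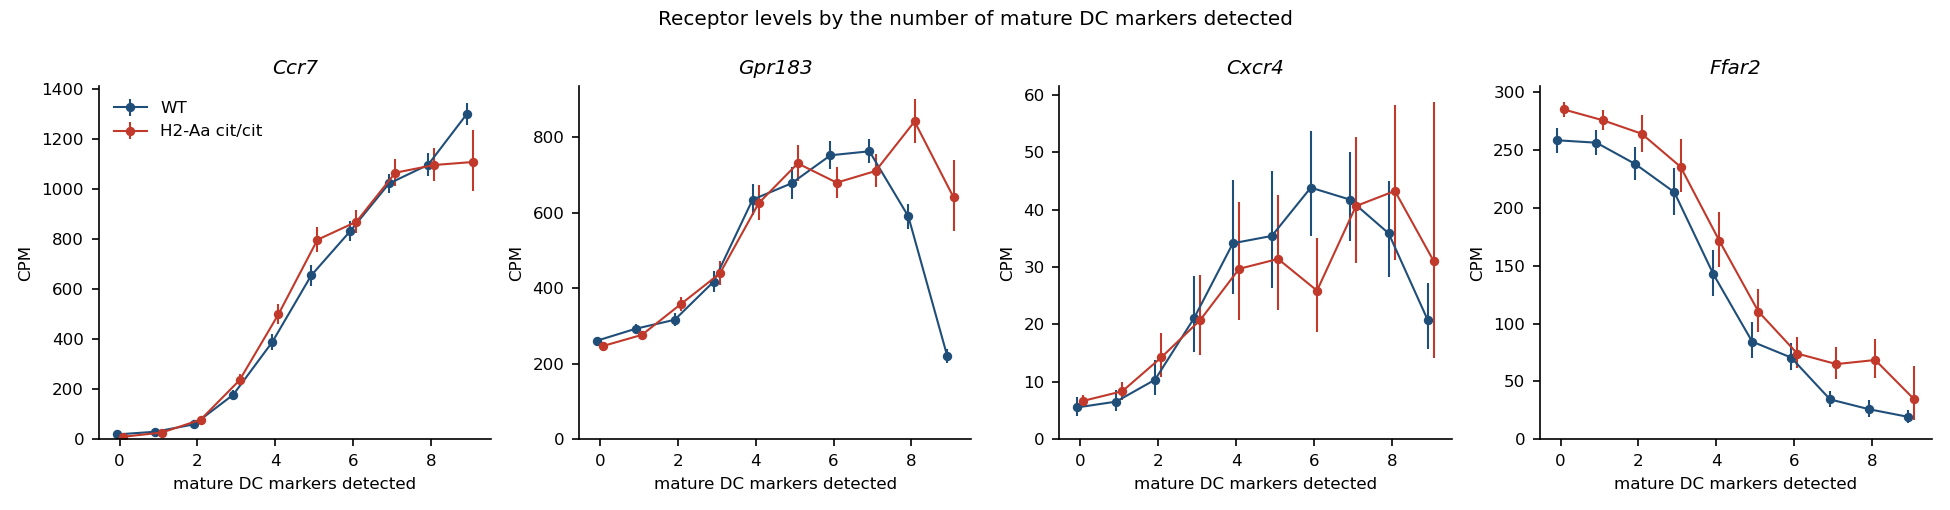
Level (CPM) of Ccr7, Gpr183, Cxcr4 and Ffar2 in cells grouped by the number of mature DC markers detected, with 95% counting intervals, for WT (blue) and H2-Aa cit/cit (red). Ccr7 climbs from 18.4 to 1301 CPM in WT, and from 9.16 to 1109 CPM in H2-Aa cit/cit, and Gpr183 drops at 9 markers in WT to 220 CPM but stands at 641 CPM in H2-Aa cit/cit.

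Outside the mature class, Ccr7 was lower in H2-Aa cit/cit in cDC1-like cells, at 2.69 CPM (26 UMIs) against 10.3 CPM in WT (69 UMIs), a log2 ratio of -1.94 (-2.65 to -1.27). This call rested on how cells were assigned: with unsupervised clusters in place of the gates it was -0.05. Mature markers moved with it, with a median of 1 detected per WT and 0 per H2-Aa cit/cit cDC1-like cell, and their part in the result was not tested. In ESAM-high cDC2-like cells Ccr7 was 35.5 CPM in WT against 37.0 CPM in H2-Aa cit/cit, with overlapping intervals. In cDC2-like cells not split it was lower in H2-Aa cit/cit, at 21.1 CPM (549 UMIs) against 35.2 CPM in WT (376 UMIs). The log2 ratio there was -0.74 (-0.93 to -0.54). At the 1.5-fold threshold this call was lost under no alternative that gave a value for it, but it did not pass at 2-fold. Clusters in place of the gates gave no value for this class. Mature markers moved with this call too, with a median of 1 per WT but 0 per H2-Aa cit/cit unsplit cell. ESAM-high cells had the same medians, with overlapping Ccr7 intervals. The part of these markers in the unsplit result was not tested. Over all cDC2-like cells the Ccr7 ratio was -0.46 (-0.60 to -0.32), short of 1.5-fold.

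Gpr183 (ENSMUSG00000051212; chr14:121952551-121965195, minus strand, within Ubac2 on the opposite strand) was carried by most DC classes except cDC1-like cells. In WT it was highest in Siglech-positive non-pDC (546 CPM, 486 to 612) and mature cells (504 CPM, 492 to 516), whose intervals overlapped, then in ESAM-high cDC2-like cells (318 CPM), pDC-like cells (238 CPM) and ESAM-low cDC2-like cells (219 CPM). In H2-Aa cit/cit the mature class came first, at 682 CPM (662 to 703), above the Siglech-positive cells at 519 CPM (470 to 571). The cDC1-like level was 29.5 CPM in WT against 29.1 CPM in H2-Aa cit/cit.

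Between the libraries the mature ratio of Gpr183 was 0.44 (0.38 to 0.49) on the log2 scale, short of 1.5-fold, and the cDC2-like ratio was -0.13 (-0.18 to -0.09). Thinned mature cells had a Gpr183 UMI in 41.8% of WT against 53.7% of H2-Aa cit/cit cells, compared with 3.62% and 2.51% of cDC1-like cells (unthinned 63.8% and 77.5% against 16.8% and 21.4%).

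Gpr183 also varied among the clusters of the mature class. A cluster with Mab21l3, Gclc, Laptm4b and Il12b among its leading genes (the Il12b cluster below) held 402 of the 1632 mature WT cells (24.6%) but 24 of the 961 mature H2-Aa cit/cit cells (2.50%). In that cluster Gpr183 was 37.0 CPM in WT against 54.6 CPM in H2-Aa cit/cit (12 UMIs). In the largest mature cluster it was 932 and 991 CPM, a log2 ratio of 0.09 (0.01 to 0.16), and in the cluster next in size among H2-Aa cit/cit mature cells 623 and 620 CPM, a ratio of -0.01 (-0.13 to 0.12). The remaining shared clusters had 930 and 922 CPM, 570 and 494 CPM, and 43.5 and 168 CPM (10 UMIs in each library). The Il12b cluster held 116 of the 152 WT mature cells with at least 2 cDC1 markers, but 2 of the 30 in H2-Aa cit/cit. Of those 152 and 30 cells, 28 and 24 were among the cells of highest doublet score. Mature cells with fewer than 2 cDC1 markers gave a Gpr183 ratio of 0.30 (0.24 to 0.36), and weighting to the WT spread over the mature markers gave 0.39. Ccr7 in the Il12b cluster was 1306 CPM in WT against 1658 CPM (1492 to 1837) in H2-Aa cit/cit, so these cells were rich in Ccr7 and poor in Gpr183 in both libraries. In mature cells with at least 2 cDC1 markers, however, Ccr7 was 1007 CPM in WT against 336 CPM in H2-Aa cit/cit. That log2 ratio was -1.58 (-1.81 to -1.37), and the part of doublets in it was not tested. Mature cells with fewer than 2 cDC1 markers gave a Ccr7 ratio of -0.09 (-0.14 to -0.05).

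Both receptors were also read within single cells. Among thinned mature cells of WT, 38.2% (35.3 to 41.1) of those with a Ccr7 UMI also had a Gpr183 UMI, against 49.3% (45.0 to 53.7) of those without. In H2-Aa cit/cit the shares were 51.8% (47.8 to 55.7) and 57.7% (52.0 to 63.3), with overlapping intervals. These shares pool all clusters of the mature class, the Il12b cluster among them. In monocyte-like cells Gpr183 was higher in H2-Aa cit/cit, at 115 CPM against 66.0 CPM (log2 ratio 0.80, 0.36 to 1.25), and in the shallow macrophage-like cells at 160 CPM against 79.0 CPM.

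The sphingosine 1-phosphate receptors were scarce. S1pr1 (ENSMUSG00000045092; chr3:115710433-115715072), the receptor that lymphocytes use to leave lymphoid organs, had 45 UMIs in the whole WT library against 6 in that of H2-Aa cit/cit. In the mature class it was 2.84 CPM in WT (38 UMIs) and 0.325 CPM in H2-Aa cit/cit (2 UMIs), a log2 ratio of -3.13 (-6.22 to -1.18). Of the 38 WT UMIs, 32 lay in the Il12b cluster described above, the one with 24 H2-Aa cit/cit cells. No S1pr1 UMI was found in cDC1-like cells of either library, where 3 UMIs would have been 0.449 CPM in WT against 0.310 CPM in H2-Aa cit/cit.

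S1pr4 (ENSMUSG00000044199; chr10:81497747-81500132), a receptor confined mostly to blood cells, was at 22.1 CPM in WT against 23.6 CPM in H2-Aa cit/cit pDC-like cells, from 21 and 16 UMIs. ESAM-low cDC2-like cells had 9.31 and 7.26 CPM, above the ESAM-high cells at 1.65 and 1.70 CPM in both libraries. Mature cells were lowest among the DC classes, at 0.299 CPM (4 UMIs) and 1.30 CPM (8 UMIs). In pDC-like, cDC1-like and both split cDC2-like classes the interval of the log2 ratio held 0, and a difference was not detectable there at this depth. In mature cells the ratio was 2.12 (0.22 to 4.30), from too few UMIs to be counted as tested, and over the whole library it was 0.39 (0.09 to 0.70), short of 1.5-fold.

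Ccr2 (ENSMUSG00000049103; chr9:124101950-124113557), which binds CCL2 and brings monocytes out of bone marrow, separated the cDC2-like populations. It was 214 CPM (196 to 232) in WT against 137 CPM (129 to 145) in H2-Aa cit/cit ESAM-low cells, but 1.88 and 2.78 CPM in ESAM-high cells. In WT the ESAM-low level overlapped those of pDC-like cells (211 CPM) and Siglech-positive non-pDC (218 CPM). In H2-Aa cit/cit these were 177 CPM (147 to 212) and 179 CPM (151 to 210), both above the ESAM-low level.

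The ESAM-low ratio of Ccr2 was -0.64 (-0.79 to -0.49), just past 1.5-fold, and was -0.49 with clusters in place of the gates and -0.54 with the mean over cells or without a cluster of H2-Aa cit/cit cells alone, each short of 1.5-fold. The share of thinned ESAM-low cells with a Ccr2 UMI was 17.8% (13.5 to 22.7) in WT against 14.1% (12.1 to 16.3) in H2-Aa cit/cit, with overlapping intervals, compared with 0.370% and 0.950% of mature cells (unthinned 42.3% and 37.0% against 1.41% and 3.12%; ESAM-low median UMIs 9087 and 7483). The direction was kept in the 3 clusters with the most ESAM-low cells, at 161 and 92.6 CPM, 313 and 241 CPM, and 444 and 315 CPM. Over all cDC2-like cells Ccr2 was 37.8 CPM in WT against 38.0 CPM in H2-Aa cit/cit, where cells gated ESAM-low by RNA made up more of the class. Weighting the H2-Aa cit/cit cells to the WT spread over the ESAM markers gave 26.9 CPM, a log2 ratio of -0.49.

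In mature cells Ccr2 was higher in H2-Aa cit/cit, at 10.2 CPM (63 UMIs) against 4.19 CPM (56 UMIs), a log2 ratio of 1.29 (0.75 to 1.84). Of the 63 UMIs, 32 came from 98 cells of a single cluster that otherwise held 384 cDC2-like cells of that library, with 32.4 CPM there against 6.54 CPM in the 94 WT cells. In the largest mature cluster the counts were 5 and 6 UMIs. The ratio was 0.63 without the cells of highest doublet score and 0.30 with clusters in place of the gates, and was then not past 1.5-fold.

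Cx3cr1 (ENSMUSG00000052336; chr9:119901616-120069879), the fractalkine receptor of patrolling monocytes, was highest in monocyte-like and macrophage-like cells of WT, at 307 CPM (273 to 344) and 294 CPM (241 to 355). Siglech-positive non-pDC followed at 157 CPM (126 to 195) and ESAM-low cDC2-like cells at 128 CPM (115 to 143), again with overlapping intervals. The annotated gene overlaps 9 others, 3 of them on its own strand (Csrnp1, Gorasp1 and Xirp1).

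In all 4 of these classes the H2-Aa cit/cit level was lower. It was 163 CPM (140 to 187) in monocyte-like cells, a log2 ratio of -0.92 (-1.19 to -0.65; -0.49 with clusters in place of the gates), and 80.0 CPM in Siglech-positive non-pDC, a ratio of -0.98 (-1.47 to -0.49). In ESAM-low cells it was 49.2 CPM (44.5 to 54.1), a ratio of -1.38 (-1.59 to -1.17), and in macrophage-like cells 112 CPM, a ratio of -1.39 (-2.07 to -0.76). Thinned ESAM-low cells had a Cx3cr1 UMI in 16.0% of WT against 6.76% of H2-Aa cit/cit cells, compared with 0.381% and 0.157% of cDC1-like cells (unthinned 43.6% and 22.1% against 3.58% and 5.0%).

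The lower Cx3cr1 of ESAM-low cells held in each of their 3 main clusters, with 138 in WT against 47.4 CPM, 87.9 against 49.5 CPM and 237 against 129 CPM. ESAM-high cells had 11 CPM in WT against 9.22 CPM in H2-Aa cit/cit, with overlapping intervals. In single cDC2-like cells Cx3cr1 went with Ccr2: 22.4% of WT against 13.6% of H2-Aa cit/cit cells with a Ccr2 UMI also had a Cx3cr1 UMI, compared with 3.46% and 2.53% of those without.

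Cxcr4 (ENSMUSG00000045382; chr1:128588199-128592293), which binds CXCL12, was highest in monocyte-like cells (47.4 CPM in WT, 33.9 CPM in H2-Aa cit/cit) and mature cells (32.2 CPM in both). The mature ratio was -0.00 (-0.25 to 0.24). The monocyte-like and mature intervals overlapped in H2-Aa cit/cit and, narrowly, in WT. Among mature, cDC2-like and ungated cells with fewer than 2 cDC1 markers, Cxcr4 also went with the mature markers. Cells with 7 mature markers had 41.8 and 40.6 CPM against 5.52 and 6.67 CPM with 0 markers. Monocyte-like cells were not in these groups. Over the whole library Cxcr4 was 16.8 CPM in WT against 10.7 CPM in H2-Aa cit/cit, and the mature class held 50.2% and 25.5% of its UMIs. The part of the number of mature cells in the library-wide difference was not tested. In cDC1-like cells Cxcr4 was lower in H2-Aa cit/cit, at 2.79 CPM (27 UMIs) against 8.24 CPM (55 UMIs), a log2 ratio of -1.56 (-2.28 to -0.87). The median number of mature markers in these cells, 1 in WT but 0 in H2-Aa cit/cit, moved with it, and its part in the result was not tested.

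**Figure D3:**
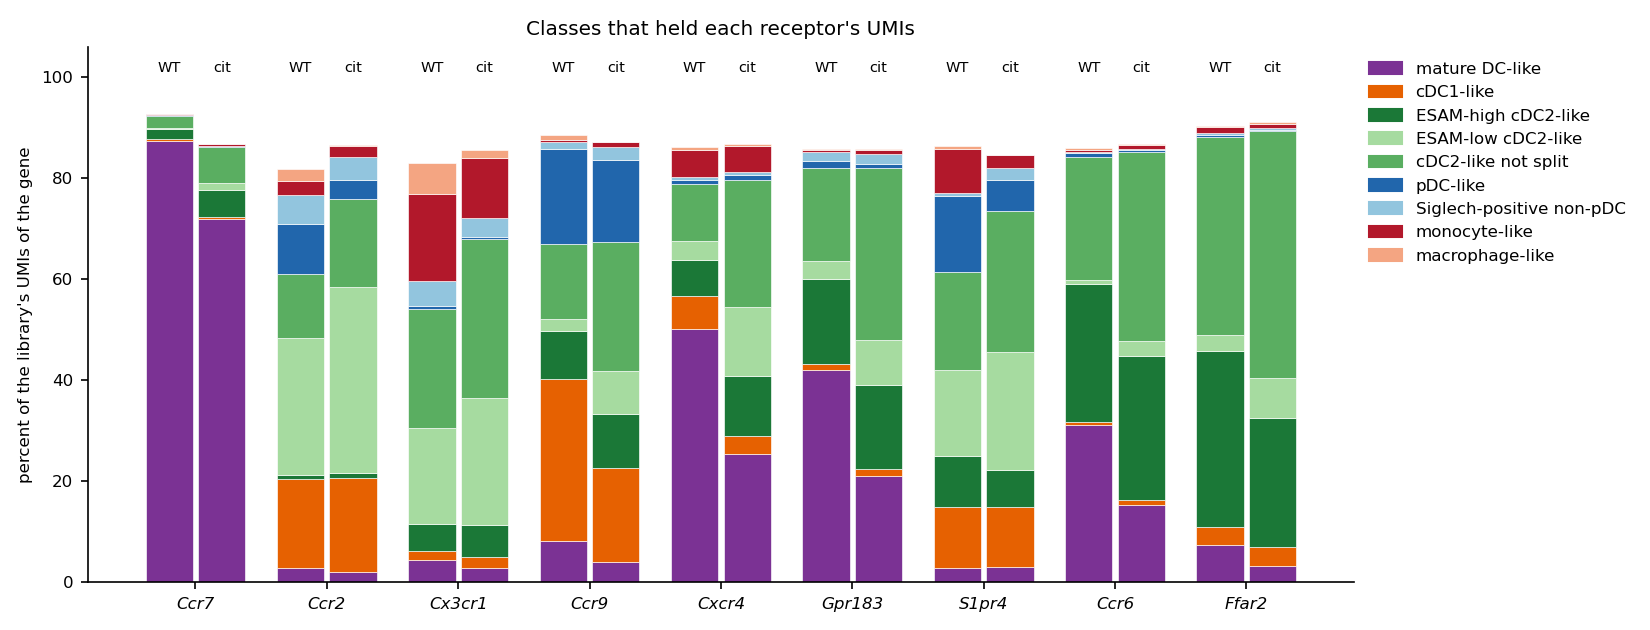
Share of each receptor's UMIs (percent of the library's UMIs of that gene) that lay in each gated class, WT and H2-Aa cit/cit side by side; the space above each stack is ungated, multiply gated and minor cells. S1pr1 is left out for its low counts; the mature class held 87.4% and 71.9% of Ccr7 UMIs and 50.2% and 25.5% of Cxcr4 UMIs.

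Ccr9 (ENSMUSG00000029530; chr9:123678439-123784330), the CCL25 receptor of gut- and thymus-homing cells, was first a pDC receptor. Its level was 600 CPM (552 to 651) in WT against 579 CPM (523 to 640) in H2-Aa cit/cit pDC-like cells, a log2 ratio of -0.05 (-0.24 to 0.14). The thinned share of pDC-like cells with a UMI was 54.5% and 61.2%, against 2.65% and 2.01% of mature cells (unthinned 96.6% and 89.4% against 10.5% and 7.70%; pDC-like median UMIs 10452 and 7478).

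cDC1-like cells came second in WT, at 145 CPM (136 to 155) from 970 UMIs, and there the libraries parted. The H2-Aa cit/cit level was 46.6 CPM (42.4 to 51.1) from 451 UMIs, a log2 ratio of -1.64 (-1.81 to -1.48). The thinned shares were 16.0% (13 to 19.4) and 7.06% (5.20 to 9.34), which did not overlap, and 48.9% and 35.0% unthinned. The 3 cDC1 clusters with enough counts gave 169 and 47.0 CPM, 370 and 125 CPM, and 136 and 40.9 CPM. Proliferating cDC1-like cells had 122 and 37.7 CPM and the others 149 and 47.8 CPM. The lower level was thus present in these 3 clusters and in cycling and non-cycling cells. The fourth cluster had 7 and 1 UMIs.

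In cDC2-like cells as a whole Ccr9 was 37.2 CPM in WT against 23.7 CPM in H2-Aa cit/cit, a log2 ratio of -0.65 (-0.78 to -0.51). Cells with few ribosomal UMIs had more of it, at 63.7 and 35.2 CPM, than the rest, at 31.8 and 23.0 CPM. Such cells were 32.0% of the cDC2-like class of WT against 13.7% of that of H2-Aa cit/cit, and without them the ratio was -0.47, short of 1.5-fold. Scaling by the median gene ratio gave -0.57, also short of it. In cDC2-like cells not split Ccr9 was 42.0 CPM in WT against 23.9 CPM in H2-Aa cit/cit, a ratio of -0.81 (-0.99 to -0.64). In the shallow macrophage-like cells it was 76.3 CPM (28 UMIs) against 8.65 CPM (2 UMIs), a ratio of -3.14 (-6.26 to -1.15). The gene's annotated span overlaps 6 others, among them Lztfl1 and Slc6a20a on the opposite strand.

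Ccr6 (ENSMUSG00000040899; chr17:8236043-8257141), the receptor for CCL20, and Ffar2 (ENSMUSG00000051314; chr7:30818348-30823775), a receptor for acetate and propionate, shared a direction along the ESAM marker index of cDC2-like cells, which counts ESAM-low minus ESAM-high markers. The 250 bases before the RefSeq start (GRCm38.p6) nearest to the annotated 5′ end of each gene are shown because both genes fell along that index. Capitals mark a match to any of 5 short motifs searched on both strands.

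Ffar2, chr7:30823776-30824025, minus strand: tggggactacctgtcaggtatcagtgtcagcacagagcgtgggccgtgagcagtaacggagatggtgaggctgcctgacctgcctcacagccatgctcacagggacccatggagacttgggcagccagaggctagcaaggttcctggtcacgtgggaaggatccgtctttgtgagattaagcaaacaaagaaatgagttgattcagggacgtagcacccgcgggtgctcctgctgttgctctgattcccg

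Ccr6, chr17:8235793-8236042, plus strand: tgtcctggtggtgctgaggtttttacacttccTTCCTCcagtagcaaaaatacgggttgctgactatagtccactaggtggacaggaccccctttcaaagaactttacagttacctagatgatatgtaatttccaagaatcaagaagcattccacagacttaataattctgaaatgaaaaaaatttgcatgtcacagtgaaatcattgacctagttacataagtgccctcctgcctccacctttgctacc

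Of 32851 RefSeq promoter windows, GAGGAA (an ETS core) was found in 23.3%, TGTGGT (a RUNX core) in 14%, the interferon response element in 2.98%, TATAAA in 12.4% and CCAAT in 33.8%. The Ccr6 match is GAGGAA read on the minus strand. None of the 5 was found in the Ffar2 window printed, but RefSeq lists 4 starts for Ffar2, and the windows of 2 others hold GAGGAA, 1 of them with CCAAT as well. The window of the other Ccr6 start holds none of the 5. A match is only a match of letters.

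Ffar2 was highest in ESAM-high cDC2-like cells, at 300 CPM (288 to 312) in WT against 359 CPM (348 to 370) in H2-Aa cit/cit, a log2 ratio of 0.26 (0.19 to 0.33). ESAM-low cells had 94.7 CPM (83.2 to 107) and 150 CPM (142 to 159), a ratio of 0.67 (0.47 to 0.87) that passed 1.5-fold. It did not pass with clusters in place of the gates (0.20) or without the cluster of H2-Aa cit/cit cells alone (0.55). The thinned share of ESAM-high cells with a UMI was 29.6% in WT against 38.3% in H2-Aa cit/cit, compared with 1 of 28 and 1 of 24 NK-like cells (unthinned 62.4% and 71.4% against 7.14% and 17.9%).

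Ffar2 was also past 1.5-fold in some classes outside cDC2-like cells. Mature cells had 40.1 CPM in WT against 83.2 CPM in H2-Aa cit/cit, a log2 ratio of 1.05 (0.87 to 1.23). Monocyte-like cells had 78.4 and 121 CPM, macrophage-like cells 70.9 and 199 CPM, and pDC-like cells 26.3 and 54.7 CPM from 25 and 37 UMIs. cDC1-like cells, at 39.5 and 59.2 CPM, were just short of 1.5-fold. The NK-like class, which stands outside the DC lineage, had 32.7 CPM (5 UMIs) and 64.1 CPM (10 UMIs). In Siglech-positive non-pDC the levels were 62.9 and 67.5 CPM, with a ratio of 0.10 (-0.55 to 0.76). Over the whole library Ffar2 was 143 CPM in WT but 216 CPM in H2-Aa cit/cit. Most of its UMIs, 77.3% and 82.4%, lay in cDC2-like cells, whose own level was 260 and 283 CPM (log2 ratio 0.12, 0.08 to 0.17) and whose share of cells was 42.5% and 61.7%. The part of RNA free in the droplets in the values of the other classes was not tested. Without the cells of highest doublet score the pDC-like ratio was 0.20 and the monocyte-like ratio 0.35, neither past 1.5-fold.

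Ccr6 was highest in ESAM-high cDC2-like cells, at 53.8 CPM (49.0 to 59.0) in WT against 42.2 CPM (38.5 to 46.2) in H2-Aa cit/cit, and in mature cells, at 38.8 CPM (35.5 to 42.3) and 41.6 CPM (36.7 to 47.0). ESAM-high and mature intervals overlapped in H2-Aa cit/cit but not in WT. Over all cDC2-like cells the levels were 40.2 and 25.1 CPM, a log2 ratio of -0.68 (-0.81 to -0.55), which became -0.43, short of 1.5-fold, when the cells were weighted to the WT spread over the ESAM index. Within ESAM-high cells alone the ratio was -0.35 (-0.54 to -0.16). ESAM-low cells had 5.05 CPM (13 UMIs) and 6.07 CPM (51 UMIs).

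Along the index, from -4 to 4 with cells beyond these values put in the end groups, the 2 pairs of receptors ran in opposite directions in both libraries. Ccr2 rose from 0.924 to 324 CPM in WT, and from 0.851 to 280 CPM in H2-Aa cit/cit. Cx3cr1 rose from 9.24 CPM to a peak of 136 CPM at 3 in WT, and from 7.66 CPM to 56.2 CPM at the same value in H2-Aa cit/cit. Ffar2 fell from 332 to 43.2 CPM in WT, and from 351 to 62.2 CPM in H2-Aa cit/cit, and Ccr6 fell from 65.6 CPM to 1.39 CPM (1 UMI) at 3 in WT, and from 51.1 CPM to 2.45 CPM (6 UMIs) in H2-Aa cit/cit. Gpr183 and Ccr7 also fell from ESAM-high to ESAM-low cells. Gpr183 went from 318 to 219 CPM in WT and from 297 to 211 CPM in H2-Aa cit/cit. Ccr7 went from 35.5 to 12.8 CPM and from 37.0 to 14.2 CPM. At index 2, with 161 and 622 cells, Ccr2 was 168 and 84.5 CPM, Cx3cr1 131 and 46.6 CPM, and Ffar2 123 and 191 CPM, so these 3 receptors differed between the libraries at the same index. The index is a difference, so the marker counts of each list were not matched. The cluster of H2-Aa cit/cit cells alone was not left out here.

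**Figure D4:**
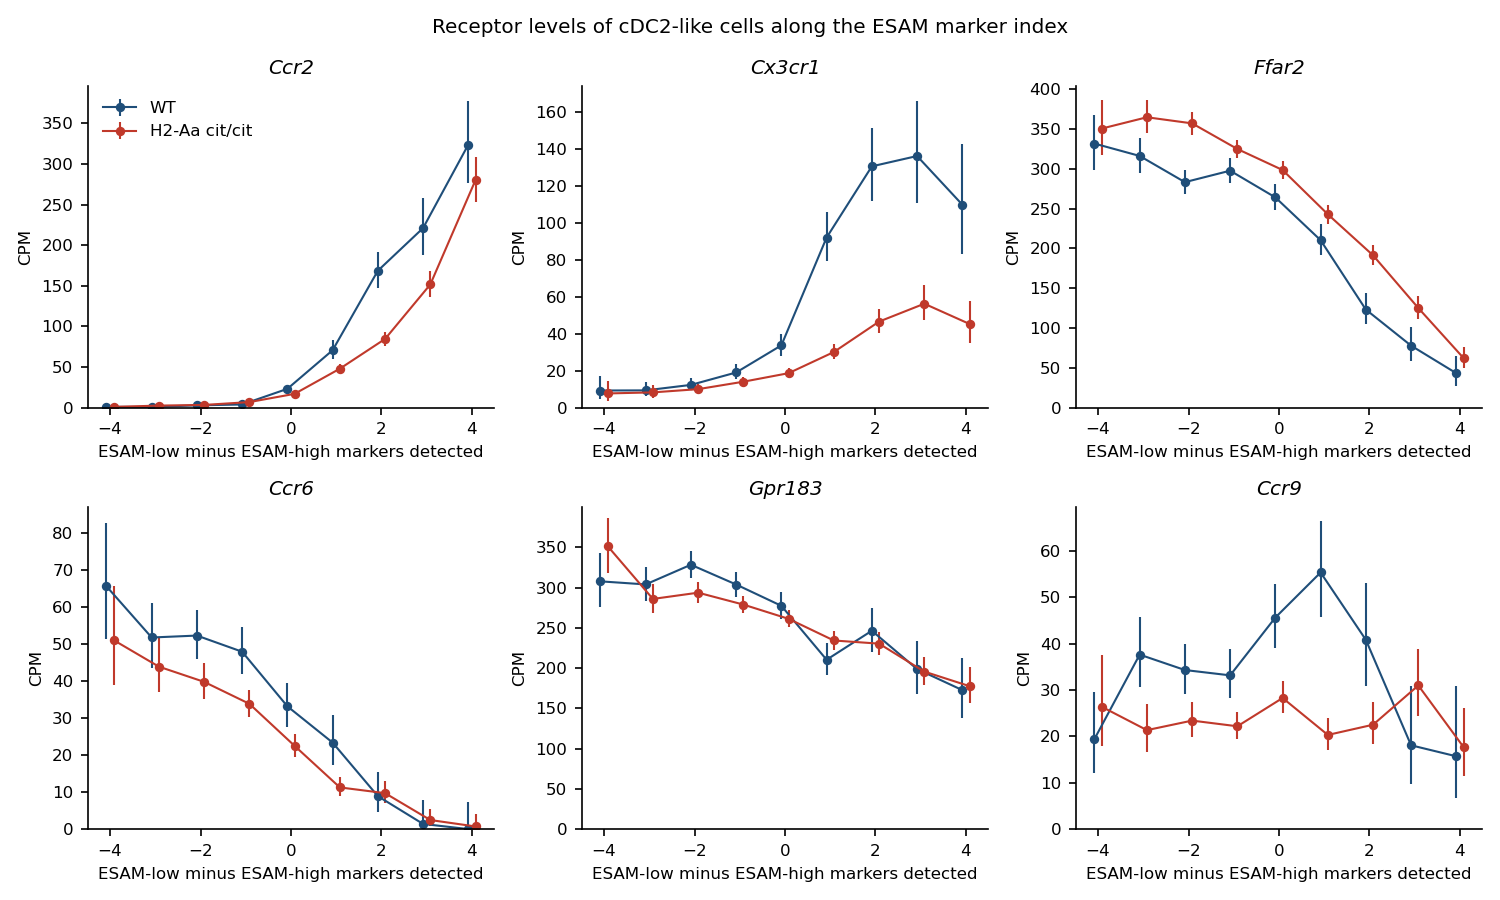
Level (CPM) of 6 receptors in cDC2-like cells by the number of ESAM-low minus ESAM-high markers detected, with 95% counting intervals, for WT (blue) and H2-Aa cit/cit (red). Ccr2 and Cx3cr1 rise and Ffar2 and Ccr6 fall with the index; at index 2, Cx3cr1 stands at 131 CPM in WT against 46.6 CPM in H2-Aa cit/cit.

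In single cells Ffar2 was read beside Ccr2 and beside Cx3cr1, and Ccr6 was not read. Among thinned cDC2-like cells with a Ccr2 UMI (85 in WT against 243 in H2-Aa cit/cit), 14.1% and 7.41% had an Ffar2 UMI, compared with 27.2% and 32.8% of those without. With a Cx3cr1 UMI the WT share was 20.2% (13.6 to 28.1) against 27.2% (25.6 to 28.8) without, with overlapping intervals. In H2-Aa cit/cit it was 16.8% (11.9 to 22.7) against 32.4% (31.2 to 33.5), without overlap. These shares, too, pool ESAM-high, ESAM-low and unsplit cells, whose levels of these receptors differ.

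Counted by class, in cDC1-like cells 3 of 9 receptors tested were lower in H2-Aa cit/cit (Ccr7, Ccr9 and Cxcr4) and none was higher, while 17.2% of all genes passed the rule there, 8.47% higher and 8.68% lower. In mature cells 2 of 9 were higher (Ccr2 and Ffar2) and 1 lower (S1pr1), beside 15.8% of all genes, 10.5% higher and 5.31% lower. In cDC2-like cells as a whole 3 of 9 were lower (Cx3cr1, Ccr9 and Ccr6) and none higher, beside 10.4% of all genes, 2.81% higher and 7.57% lower. By population, 0 of 9 passed in ESAM-high cells (6.49% of all genes), 3 of 9 in ESAM-low cells (7.78%) and 4 of 9, all lower, in cells not split (9.23%): Ccr7, Cx3cr1, Ccr9 and Ccr6. In pDC-like cells 1 of 5 passed (Ffar2, beside 5.27% of all genes), and in Siglech-positive non-pDC 1 of 5 (Cx3cr1, beside 6.08%). In monocyte-like cells 3 of 7 passed (8.36% of all genes), with Cx3cr1 lower and Gpr183 and Ffar2 higher. In macrophage-like cells 5 of 5 passed (12.7% of all genes), with Ccr2, Cx3cr1 and Ccr9 lower and Gpr183 and Ffar2 higher. The median log2 ratio of the receptors tested and of all genes tested was -0.02 and -0.04 in cDC1-like cells, 0.10 and 0.11 in mature cells, -0.13 and -0.08 in cDC2-like cells as a whole, -0.25 and -0.05 in cDC2-like cells not split and -1.39 and 0.03 in macrophage-like cells. In the other 5 classes of at least 50 cells the medians were closer to each other than 0.10.

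**Figure D5:**
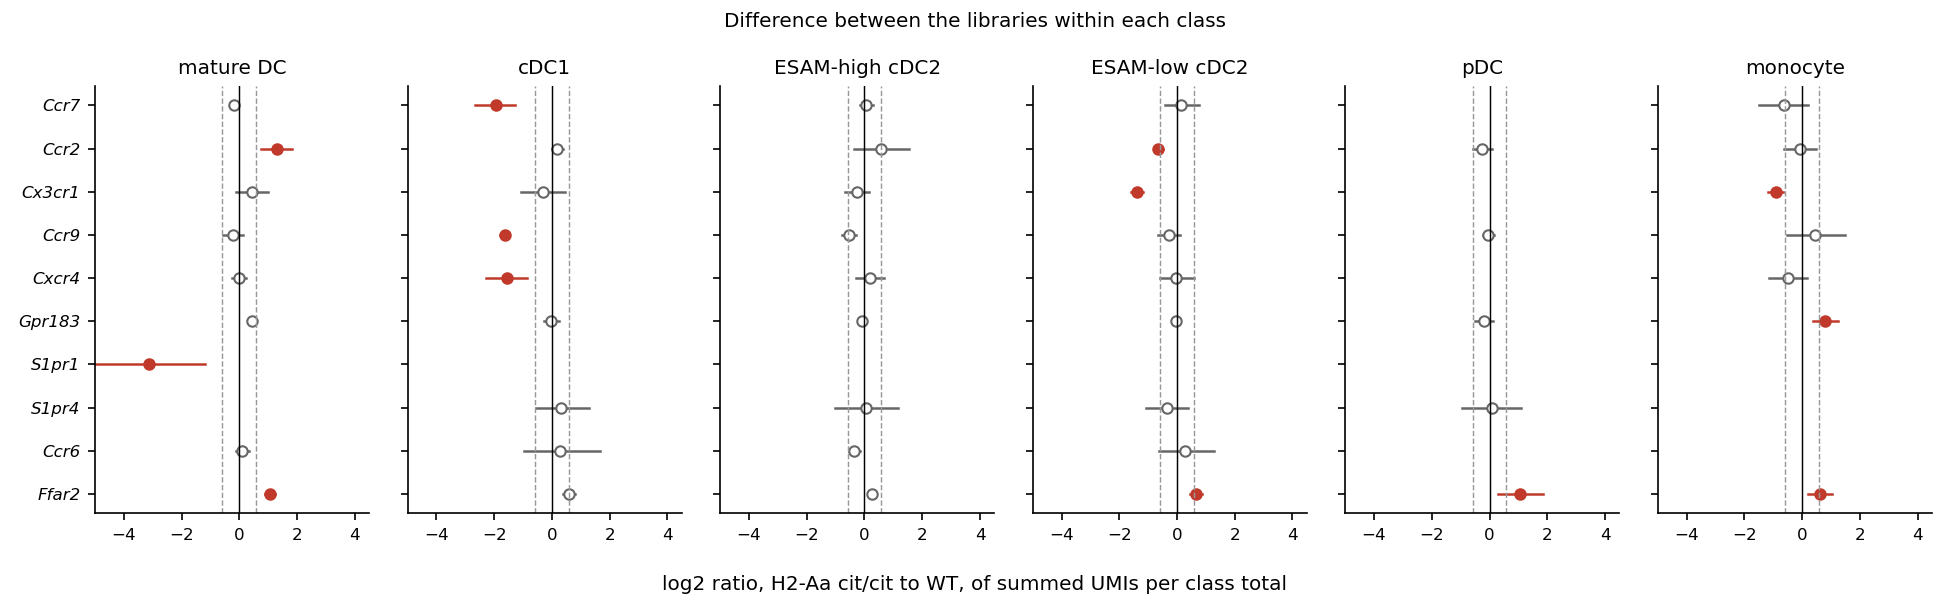
Log2 ratio of each receptor between the H2-Aa cit/cit and WT libraries in 6 gated classes, with 95% counting intervals; filled red points passed 1.5-fold (dashed lines), and receptors with under 20 UMIs are not drawn. Ccr9 in cDC1-like cells lies at -1.64 and in pDC-like cells at -0.05.

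Genes whose levels were most like those of a receptor were sought over 18 sums, of 9 classes in 2 libraries, which share libraries and cells of origin. The marker genes of the gates and the receptors themselves were left out of the search, so none of them could be named. Ccr7 was closest to Tmem19 (Pearson r of log2 CPM 0.988) and Birc2 (0.985), Ccr9 to Fcrla (0.970) and Rhobtb2 (0.946), and Ccr6 to Sucnr1, the succinate receptor (0.928), and Cdhr3 (0.914). Cx3cr1 was closest to G6pdx (0.940) and Abcd2 (0.935), Ffar2 to Dab2ip (0.934) and Ptgs2os2 (0.924), Gpr183 to St8sia1 (0.936) and Acvr2a (0.901). Cxcr4 was closest to Azin2 (0.919) and Tnfrsf1b (0.897), S1pr4 to Mtss1 (0.918) and Padi2 (0.896), and Ccr2 to Ybx3 (0.908) and Atp5h (0.888).

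Other genes of these pathways were counted from 3 lists. Of 37 further chemoattractant receptors, 26 were tested in cDC2-like cells as a whole, and 1 was higher and 5 lower in H2-Aa cit/cit, beside 2.81% and 7.57% of all genes. Ccr1, a receptor for CCL3 and CCL5, was higher (2.02 CPM in WT against 3.44 CPM in H2-Aa cit/cit), and Ackr4, a scavenger of CCR7 ligands, lower (3.49 and 2.26 CPM). Their median log2 ratio was -0.09, beside -0.08 for all genes. Of 19 ligands and ligand-processing enzymes, 8 were tested and none passed in either direction. Of 39 genes of receptor signalling, all were tested and 1 passed in each direction. Cd69, which holds S1PR1 inside the cell, was higher (3.95 and 8.01 CPM), and Klf2, a transcription factor upstream of S1pr1 in lymphocytes, was lower (142 and 94.5 CPM).

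In mature cells 20 of the further receptors were tested, with 5 higher and 2 lower beside 10.5% and 5.31% of all genes, and in cDC1-like cells 18, with 1 in each direction beside 8.47% and 8.68%. Of the ligands and enzymes, 11 were tested in mature cells, with none higher and 3 lower. In cDC1-like cells 7 were tested, with 1 higher and none lower. Of the signalling genes, 38 were tested in mature cells, with 4 higher and 1 lower. In cDC1-like cells 39 were tested, with 4 higher and 2 lower, beside the same shares of all genes. The following genes were picked after their values were seen. Ptger4, a prostaglandin E2 receptor that promotes DC migration, was 180 CPM in WT against 90.8 CPM in H2-Aa cit/cit mature cells. Ccl19, a ligand of CCR7 made by mature DC themselves, was 10.6 and 6.01 CPM, and Hsd3b7, which degrades the ligands of EBI2, 12.8 and 6.83 CPM. Others were higher in H2-Aa cit/cit mature cells: Rac2 (32.3 and 59.2 CPM), Rgs2 (96.9 and 151 CPM), Rgs18 (6.88 and 14.3 CPM) and Gpr18 (49.1 and 77.4 CPM). Grk5, of the signalling list, was lower in them (211 and 137 CPM). Rgs2 went the other way in cDC1-like cells, at 305 CPM in WT against 193 CPM in H2-Aa cit/cit. In cDC1-like cells Ptger2 was 15.3 and 46.8 CPM, and Dock8, which DC need to move through tissue, 426 and 271 CPM. Ric8a was 21.6 and 34.3 CPM there, and Pik3r6 15.0 and 27.5 CPM.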

How the data were processed

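Spleen cells were captured on the 10x Chromium 3′ platform, and the authors aligned reads and counted UMIs with Cell Ranger 5.0.1 (build GRCm38, per the submitters' processing notes, which also name Seurat). The files deposited hold raw UMI counts, one value for each gene in each cell, in cells that carry at least 500 UMIs. Gene spans came from GENCODE and promoter windows (250 bases upstream) from RefSeq, which held 8 of the 10 receptors.

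The members and gene lists were chosen with earlier results of these data known. Cells were gated by the number of markers detected (3 to 5 of lists of 4 to 16 genes), and by 2 or more Siglech UMIs for the Siglech-positive class. The split of cDC2-like cells needed at least 2 markers of a list of 6 and a lead of at least 2 over the other list. UMIs were summed per class and library and divided by the class total (CPM). Intervals at 95% were exact Poisson for CPM, Clopper-Pearson for shares and conditional binomial for ratios, and they cover counting error only, as does the limit of 3 UMIs for a count of 0. Genes with under 20 UMIs over both libraries in a class were not tested. Shares of cells were taken after thinning to 1500 UMIs, which removed 734 WT cells and 958 of H2-Aa cit/cit. Named genes were the 10 receptors, the 2 genes most like each (at 10 CPM or more, log2 of CPM plus 5), H2-Aa, and listed pathway genes with at least 100 UMIs past 1.5-fold in cDC2-like cells. Gate markers and the receptors themselves were left out of the search for like genes. Pathway genes named in mature or cDC1-like cells, and the leading genes of a cluster, were chosen after their values were seen. Doublets were not removed in the main values, and 488 WT and 1063 H2-Aa cit/cit cells of highest Scrublet score were left out as an alternative. Clusters (Leiden, resolution 1, 30 components) were made with scanpy 1.11.5 in Python 3.11.15, and intervals with scipy 1.17.1. The ratio step was tested on simulated data. Alternatives changed the gates, scaling, fold and cells kept.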

Additional observations from a re-analysis of the deposited data

How the results depend on the processing

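Of 76 receptor ratios tested, 26 were past 1.5-fold, and the share of all genes past it is given by class above. Ratios of cDC2-like cells as a whole were counted beside those of their ESAM-high, ESAM-low and unsplit cells, so the 26 are not separate results. Each kept its direction under every alternative that gave a value for it: all 26 under most, and 20 with clusters in place of gates. Weighting H2-Aa cit/cit cells to the WT spread over the marker index, an alternative chosen after seeing the data, gave a value for 9. Still past 1.5-fold were 25 with 1 more marker in every gate, 25 after scaling by the median gene ratio, 24 with the mean over cells, 26 without cells over 10% mitochondrial UMIs, 24 without cells under 5% ribosomal UMIs, 23 without the highest doublet scores and 14 of 20 with clusters in place of gates. Among other alternatives chosen after seeing the data, 26 stayed past without proliferating cells, 26 without mature cells that carry cDC1 genes, and 24 without a cluster of 783 H2-Aa cit/cit cells that held no WT cell. Weighting took Ccr6 in all cDC2-like cells to -0.43, short of 1.5-fold. With clusters, calls were lost for Ccr2 in ESAM-low, mature and macrophage-like cells, Ffar2 in ESAM-low cells, Cx3cr1 in monocyte-like cells and Ccr7 in cDC1-like cells. Without the highest doublet scores they were lost for Ccr2 in mature cells and Ffar2 in monocyte-like and pDC-like cells, and after median-ratio scaling for Ccr9 in all cDC2-like cells. Calls were also lost for Ccr6 in cDC2-like cells not split and Ccr9 in all cDC2-like cells without cells under 5% ribosomal UMIs, for Ccr6 in cells not split with 1 more marker, for Ccr2 in ESAM-low and Gpr183 in macrophage-like cells with the mean over cells, and for Ccr2 and Ffar2 in ESAM-low cells without the cluster of H2-Aa cit/cit cells alone. The number of receptors past the threshold moved by over 1.5 times in these cases. In ESAM-high cells it was 1 (Ccr9) in place of 0 with the mean over cells and with clusters. In ESAM-low cells it was 1 (Cx3cr1) in place of 3 without that cluster and at 2-fold. In pDC-like cells it was 0 in place of 1 without the highest doublet scores. At 2-fold it was 0 in Siglech-positive non-pDC, monocyte-like cells, cDC2-like cells not split and cDC2-like cells as a whole. The ESAM-low ratio of Ffar2 ranged from 0.20 to 0.87 over these settings, that of Ccr2 from -0.68 to -0.49, that of Cx3cr1 from -1.57 to -1.30, and the cDC1-like ratio of Ccr9 from -1.68 to -1.39. Why the values moved was not tested. With 1 library a group, leaving out a replicate was not possible. No paired analysis was possible because each group is 1 library and no test was made. Depth limits S1pr1 and S1pr4, with 45 and 6 UMIs of S1pr1 and 140 and 261 of S1pr4 in the WT and H2-Aa cit/cit libraries.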
